A study of Homo sapiens with 7 samples.

Results

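Serum amyloid A proteins and the small secreted defence proteins of epithelia were followed in MCF-10A, an established human breast epithelial line that is not transformed. The 9 genes were chosen by name and function, as all probes whose gene symbol was SAA1, SAA2, SAA4, DEFB1, LCN2, PI3, SLPI, PLAC8 or BPIFB1, and they were proposed with results of the shBrit1 against shControl comparison already in view. Their values in that comparison are therefore given as a description, without a test of their own. The array held 10 probes for these 9 genes, among 48701 probes in all and 19304 named genes, with SAA1 measured by 2 probes and every other gene by 1. Of these, 9 probes for 8 genes passed the detection filter, and BPIFB1 did not.

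The study compared MCF-10A cells that stably carried a hairpin RNA against Brit1, a gene of the DNA damage response, with cells carrying a scrambled hairpin, both brought in by lentivirus. The 4 shBrit1 arrays and 3 shControl arrays came from cells grown in the same medium and collected 48 h after seeding, and the submitters describe them as biological replicates. The labels name 1 hairpin against Brit1 and do not say whether each line was a clone or a pool, so effects of the hairpin, of the selected line and of Brit1 loss cannot be told apart. Brit1 itself was not analysed here, so how far it was depleted is not shown by these data.

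Serum amyloid A proteins are apolipoproteins of the acute-phase response, best known from the liver and also made by epithelia under inflammatory cytokines. SAA1 and SAA2 encode the inducible forms and SAA4 the constitutive form. Beta-defensin 1 (DEFB1) is a small cationic peptide that damages microbial membranes, and lipocalin 2 (LCN2) binds bacterial siderophores and so withholds iron. Elafin (PI3) and the secretory leukocyte protease inhibitor (SLPI) share the WAP fold and inhibit neutrophil proteases. BPIFB1 is a secreted protein of the airway lining related to bactericidal/permeability-increasing protein, and PLAC8 is a small cysteine-rich protein found in epithelia and immune cells.

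In RefSeq (GRCh38.p14) SAA4, SAA2 and SAA1 are consecutive genes on chromosome 11, apart from the readthrough gene SAA2-SAA4, and PI3 and SLPI lie on chromosome 20 with SEMG1 and SEMG2 between them. LCN2 is on chromosome 9, PLAC8 on chromosome 4 and BPIFB1 on chromosome 20. SAA1 and SAA2 are close paralogs, so the signals of their probes may not be separate. The promoter windows of LCN2 and SAA4 are shown because both genes were higher in shBrit1 and both have an entry in the RefSeq promoter table. Each window holds 250 bases before and 50 after the gene's start, 5′ to 3′ on the gene's strand. The LCN2 window is chr9:128149203-128149502 on the plus strand and the SAA4 window is chr11:18236753-18237052 on the minus strand, both in GRCh38.p14. Capitals mark matches, on either strand, to the NF-kB consensus or to the C/EBP half-site pair TTNNGNAA.
LCN2: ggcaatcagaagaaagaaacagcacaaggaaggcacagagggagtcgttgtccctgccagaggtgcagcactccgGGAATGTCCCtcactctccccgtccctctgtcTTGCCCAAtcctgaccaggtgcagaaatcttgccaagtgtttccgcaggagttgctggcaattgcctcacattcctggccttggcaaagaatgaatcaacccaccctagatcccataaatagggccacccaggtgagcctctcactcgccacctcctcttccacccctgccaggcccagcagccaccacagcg
SAA4: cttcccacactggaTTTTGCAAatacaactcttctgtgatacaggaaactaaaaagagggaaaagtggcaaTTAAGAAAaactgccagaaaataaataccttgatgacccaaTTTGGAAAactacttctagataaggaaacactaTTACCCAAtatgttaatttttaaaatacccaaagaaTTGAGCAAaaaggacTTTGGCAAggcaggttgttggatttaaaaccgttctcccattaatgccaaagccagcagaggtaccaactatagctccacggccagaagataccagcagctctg
The LCN2 window held 1 NF-kB match, 175 to 166 bases before the start, and 1 match to TTNNGNAA. The SAA4 window held 6 matches to TTNNGNAA and 0 to the NF-kB consensus, and no 2 marked matches overlap in either window. Of all 35116 promoter windows of this length, 5.91% held the NF-kB consensus and 36.8% held TTNNGNAA. STAT sites (TTCNNNGAA, in 7.66% of windows) and TATAAA (in 11.5%) had 0 matches in both. The table's 2 windows for PLAC8 held 1 match to TTNNGNAA between them, and the BPIFB1 window held 0 of any of the 4 motifs. A match is a description of the letters in the window and not a measured binding site.

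The arrays differed broadly between the groups, and shControl replicate 3 stood apart from the other controls. Over the 17967 tested probes, Pearson's r was 0.930 to 0.937 between an shBrit1 and an shControl array and 0.995 to 0.998 between shBrit1 arrays. The difference between shControl replicates 1 and 2 had an SD of 0.192 log2 across probes, against 0.531 and 0.510 for replicate 3 against each of them. The deposited column names of replicates 1 and 2 share a form that the name of replicate 3 lacks. The labels do not say what the form marks, so whether replicates 1 and 2 share an origin is unknown. Without replicate 3 the control mean rests on those 2 arrays alone. The SE of the fit pools the spread within both groups and is moderated across probes, so it does not measure the spread of the controls by itself. All 9 genes on the array that were listed as markers of basal and squamous mammary epithelium were detected. Values below are log2 signals after background correction and quantile normalization unless they are called bead signals, which are the deposited, non-normalized values, and a probe counts as detected at a detection p-value under 0.05.

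SAA1 was far brighter in the knockdown cells. Its first probe (ILMN_1808732) gave bead signals of 2605, 2257, 2323 and 2477 on the 4 shBrit1 arrays, against 107, 167 and 1475 on the shControl arrays. After normalization these were 11.53, 11.15, 11.24 and 11.26 in shBrit1, against 5.84, 6.63 and 10.39 in shControl. The groups did not overlap, and the third control array lay close to the knockdown cells. The log2 difference was 3.68 (SE 0.90), or 12.8-fold, and 5.06 (SE 0.18), or 33.4-fold, without shControl replicate 3. Without shControl replicate 1 it was 2.79, or 6.90-fold, so the size of the difference depended on which controls were used.

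The second SAA1 probe (ILMN_1701017) had the same order with a smaller step on the third control. Its bead signals were 1299, 1216, 1172 and 1375 in shBrit1, against 97.6, 130 and 318 in shControl. The shBrit1 mean was 10.31 ± 0.16 (SD, n = 4) and the shControl mean 6.55 ± 1.32 (SD, n = 3), a 13.6-fold difference and a 22.8-fold one without shControl replicate 3. On that array this probe read 4.74-fold above the mean of the other controls, whereas the first probe read 17.8-fold above it. On all arrays the 2 probes of SAA1 thus gave nearly the same difference between the groups, but they disagreed on the size of the step within the controls. Without shControl replicate 3 their log2 differences were 5.06 and 4.51.

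SAA2 followed SAA1, its neighbour and near copy. Bead signals were 2793, 2614, 2638 and 2737 in shBrit1, against 139, 167 and 1181 in shControl. The knockdown arrays were again tight and above all controls, with means of 11.46 ± 0.12 (SD, n = 4) in shBrit1 and 7.74 ± 2.01 (SD, n = 3) in shControl. The difference was 13.2-fold (log2 3.72, SE 0.74) and 29.6-fold without shControl replicate 3, and it was 8.64-fold without shControl replicate 1.

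SAA4, the constitutive form, was near the limit of detection in control cells. It was detected on all 4 shBrit1 arrays, with bead signals of 553, 517, 542 and 526. Of the 3 shControl arrays only replicate 3 detected it, with 165, while replicates 1 and 2 read 75.0 and 76.7. The groups did not overlap, and the log2 difference was 3.45 (SE 0.44), a 10.9-fold difference that is uncertain because 1 of 3 controls detected the gene. Against shControl replicates 1 and 2, which did not detect it, SAA4 was at least 14.2-fold higher in shBrit1 on the normalized values. With the authors' log2 values that difference was 2.80 log2, below this bound.

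The size of the SAA differences depended on the background correction, and all 4 probes were dim on shControl replicates 1 and 2. With the authors' deposited log2 values the log2 differences were 3.10 and 3.01 for the SAA1 probes, 3.24 for SAA2 and 2.42 for SAA4.

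DEFB1, the defensin gene on chromosome 8, had the largest difference of the 9 genes on all arrays and did not share the step on shControl replicate 3. Its bead signals were 2321, 2333, 2478 and 2519.9 in shBrit1, against 199, 240.1 and 171 in shControl. The third control was the lowest of all 7 arrays. The log2 means were 11.30 ± 0.07 (SD, n = 4) in shBrit1 and 7.18 ± 0.24 (SD, n = 3) in shControl. The difference of 17.4-fold (log2 4.12, SE 0.12) was 15.9-fold without shControl replicate 3 and 3.63 on the log2 scale with the authors' values.

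LCN2 was bright in both groups and higher in the knockdown cells. Bead signals were 6219.5, 6295, 6780.4 and 6660.2 in shBrit1, against 449, 565 and 3737 in shControl. The shBrit1 arrays differed by only 0.13 log2 from lowest to highest and lay above all controls, of which the third was the nearest. The difference was 7.87-fold (log2 2.98, SE 0.65) with all controls and 4.00 on the log2 scale (SE 0.09) without shControl replicate 3.

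**Figure D1:**
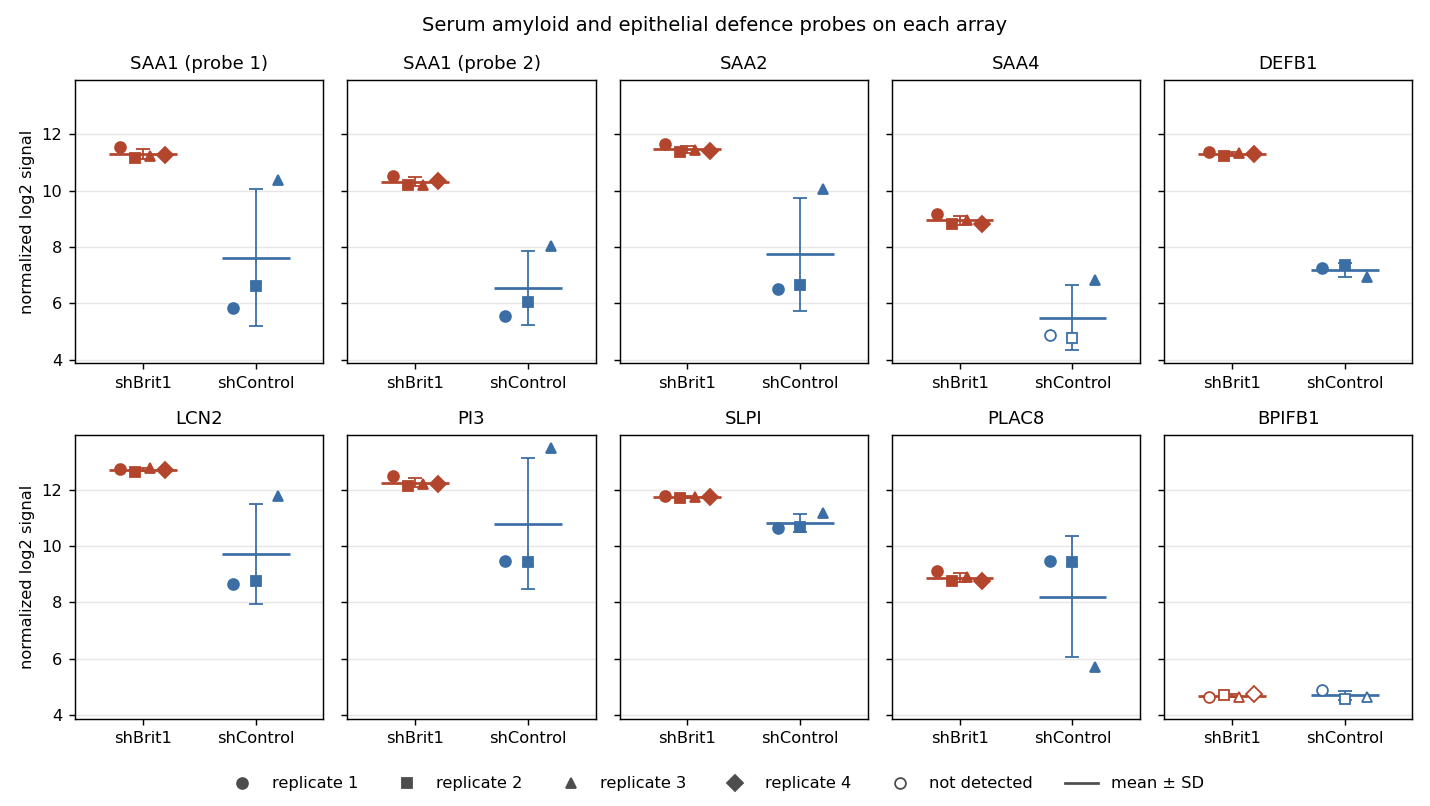
Normalized log2 signal of each of the 10 probes on each array, shBrit1 left of shControl in each panel; symbols are replicates, open symbols are not detected, and lines with bars are group means ± SD. The shBrit1 arrays cluster tightly for every detected probe, while shControl replicate 3 is far above the other controls for SAA1, SAA2, SAA4, LCN2 and PI3 and far below them for PLAC8.

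PI3, which encodes elafin, was higher in shBrit1 than in 2 of the 3 controls only. Bead signals were 5100.1, 4457, 4568 and 4747 in shBrit1, against 761, 861 and 10546 in shControl. The third control was the brightest of all 7 arrays, so the groups overlapped. The log2 means were 12.25 ± 0.15 (SD, n = 4) in shBrit1 and 10.79 ± 2.32 (SD, n = 3) in shControl, and the difference of 1.46 (SE 0.86) was within the spread of the controls. Without shControl replicate 3 PI3 was 6.98-fold higher in shBrit1 (log2 2.80, SE 0.11), and against that array alone the shBrit1 mean lay 1.22 log2 lower. Without shControl replicate 1 or 2 PI3 was 1.75-fold or 1.72-fold higher in shBrit1.

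SLPI, the other WAP inhibitor, was bright everywhere and differed least among the members whose groups did not overlap. Bead signals were 3078, 3298, 3256 and 3490.1 in shBrit1, against 1652, 2002 and 2533 in shControl. All 4 knockdown arrays lay above the controls, and the third control again lay between the rest and the knockdown cells. The log2 difference was 0.91 (SE 0.14), or 1.88-fold, and 1.09 (SE 0.08), or 2.13-fold, without shControl replicate 3.

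PLAC8 had the reverse layout within the controls. Bead signals were 532, 504, 519 and 507 in shBrit1, against 751, 873 and 109 in shControl. Replicates 1 and 2 of the control were the brightest arrays and replicate 3 by far the dimmest, so the groups overlapped and the sign of the mean difference depended on that array. With all controls the log2 difference was 0.68 (SE 0.80), and without shControl replicate 3 it was -0.57 (SE 0.11), 1.48-fold lower in shBrit1. Without shControl replicate 1 it was 1.30, or 2.46-fold higher in shBrit1.

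BPIFB1 was not detected on any array. Its bead signals ran from 70.9 to 75.9 in shBrit1 and from 64.0 to 75.8 in shControl, with detection p-values of 0.232 or more, so no difference in this gene could be measured. Its neighbours BPIFA1, BPIFA2 and BPIFA3 were not detected on enough arrays to be tested.

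In the fit across all probes (limma, Benjamini-Hochberg adjusted p under 0.05), 7 of the 9 tested member probes, for 6 genes, were called higher in shBrit1 and 0 lower, while PI3 and PLAC8 were not called. Over all 17967 probes, 26.9% were called higher and 26.9% lower. The groups were separate, with shBrit1 above, in 7 of 9 member probes, against 28.0% of all tested probes (28.1% were separate with shBrit1 below), and they overlapped in 2, against 44.0%. Without shControl replicate 3, 8 member probes were called higher and 1, PLAC8, lower, against 31.0% and 32.4% of all probes. Because the members were proposed from this comparison, these counts describe them and are no evidence about the group.

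**Figure D2:**
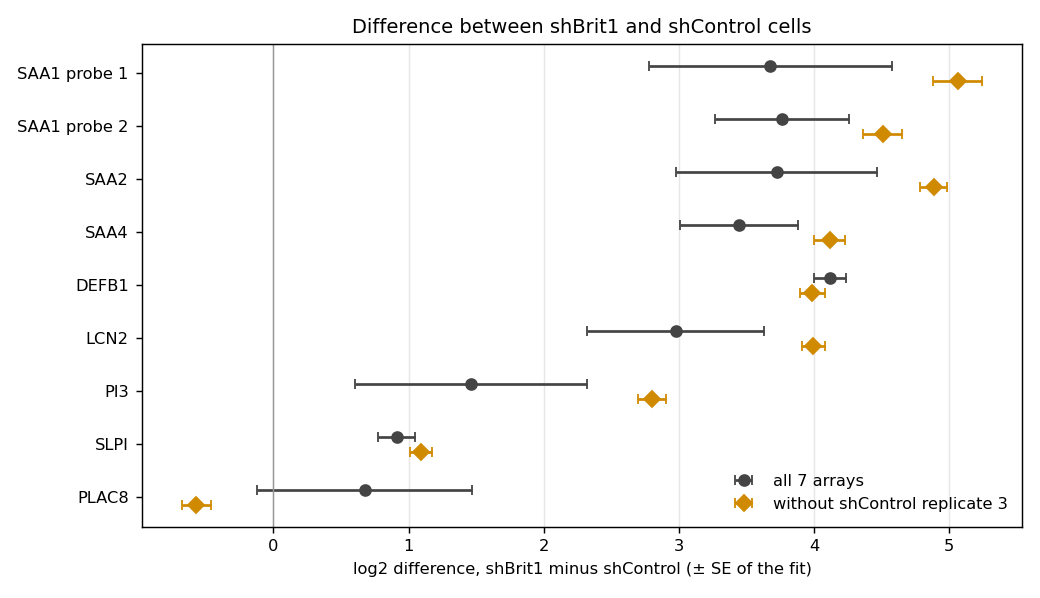
Log2 difference of shBrit1 minus shControl for the 9 tested probes, with bars for the SE of the limma fit; circles use all 7 arrays and diamonds leave out shControl replicate 3. The SEs shrink without that array for every probe, PI3 moves to 2.80, PLAC8 changes sign to -0.57, and DEFB1 hardly moves (4.12 and 3.99).

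The third control array set most of the spread within the members. The SD of the 9 tested probes ran from 0.03 to 0.17 log2 among the shBrit1 arrays and from 0.24 to 2.43 among the shControl arrays, and it was smaller in shBrit1 for all 9. Over all tested probes the median SD was 0.11 in shBrit1 and 0.17 in shControl. On shControl replicate 3, 6 member probes were at least 2-fold above the mean of replicates 1 and 2 and 1, PLAC8, at least 2-fold below it, against 2.40% and 3.12% of all tested probes. PI3 was 16.2-fold and LCN2 8.34-fold above the other controls there, SAA2 11.2-fold, and PLAC8 13.3-fold below. SAA4, which the other controls did not detect, was at least 3.28-fold above them. SLPI was 1.45-fold above, and DEFB1 was 1.32-fold below. With 1 array against 2, these values have no test.

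Placed on the line from the mean of shControl replicates 1 and 2 to the shBrit1 mean, on the log2 scale, the third control array took a different position for different members. It lay 82.1% and 49.8% of the way for the 2 SAA1 probes, 71.4% for SAA2, 76.6% for LCN2 and 49.3% for SLPI. For PI3 it lay beyond the knockdown cells, at 143%. For DEFB1 it lay slightly on the far side of the other controls, at -9.94%. SAA4 has no such position, since replicates 1 and 2 did not detect it.

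**Figure D3:**
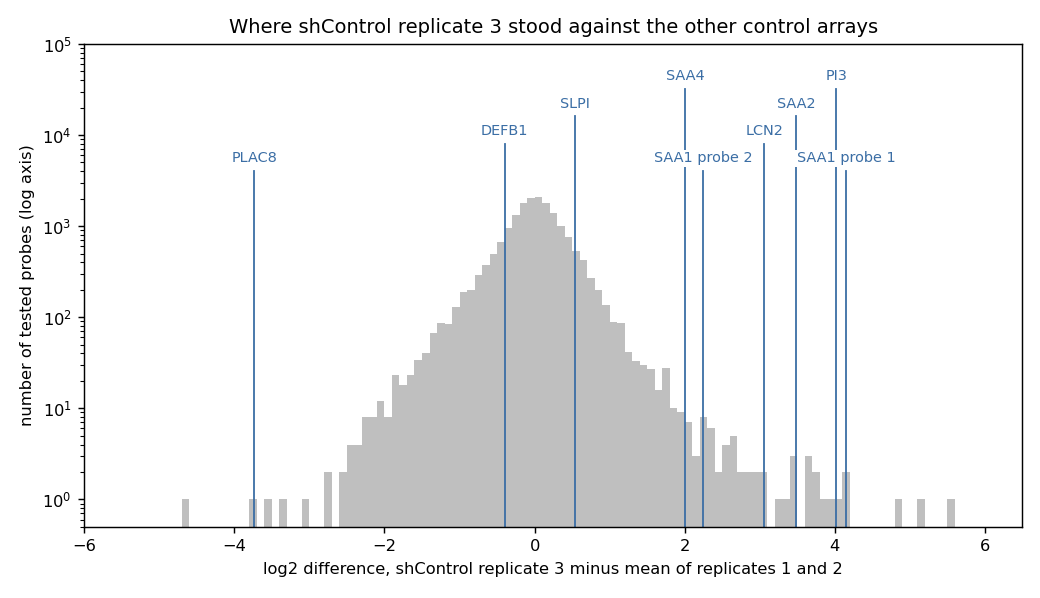
Histogram of the log2 difference of shControl replicate 3 minus the mean of shControl replicates 1 and 2 over the 17967 tested probes (log axis), with the 9 member probes marked. Most probes sit near 0, PLAC8 is at -3.74, DEFB1 at -0.40, SLPI at 0.54, and the other 6 member probes lie at 2.01 or more, the lowest being SAA4, which replicates 1 and 2 did not detect.

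The genes whose values followed a member most closely over the 7 arrays were found among 12317 genes by Pearson's r, which here reflects 2 groups of arrays and 1 outlying control and is given as a measure of likeness only. For SAA1 they were USP36, TNFRSF14 and the calprotectin subunit S100A8 (r = 0.996 to 0.998). For SAA2 and LCN2 they included IL11RA and PARP10 in both cases, with IFIT1, an interferon-induced protein, for SAA2 and FOLR3 for LCN2 (r = 0.998 to 0.999). PI3 was most like the chemokine CXCL1, the antimicrobial ribonuclease RNASE7 and the interferon-induced IFI6, all high on shControl replicate 3, by 3.77, 1.42 and 5.19 log2. SAA4 was closest to CCDC102A, SLC47A2 and CDK18, and SLPI to NUDT14, FBXO2 and SLC66A2. DEFB1 was closest to PCGF2, IRX3 and ID2, none of them raised on that array. PLAC8 was closest to GNG10, CPVL and OSTC, which differed there by -1.90, -1.31 and -2.16 log2.

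Other genes of epithelial defence and of the acute-phase response were described in 7 lists of 192 distinct genes, none of them a member, of which 112 were tested with 1 probe each. By limma at the same threshold 51 of them rose and 17 fell in shBrit1, and 65 were higher and 21 lower without shControl replicate 3. Over the 12372 genes tested, 29.5% rose and 30.1% fell, with a median log2 difference of -0.01, and without that array 34.4% and 34.8%. The lists were chosen with earlier results of these data known, and many of the genes named below were picked for their small p-values. Their counts and p-values are therefore a description and no evidence about the lists. Detection on 3 of 7 arrays was enough for a test, so the arrays of 1 group alone could admit a gene. A gene admitted through the shBrit1 arrays alone could hardly be called lower, so its call is a description. The arrays measured RNA of whole cultures, so more RNA per cell and more cells making it cannot be told apart.

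The acute-phase proteins that could be tested were mostly higher. Of 11 tested genes 8 rose, 0 fell and 3 were not called, with a median log2 difference of 1.26. Another 12 genes of this list were on the array and not detected on enough arrays to be tested. CFB, complement factor B, rose 17.8-fold (log2 4.16, SE 0.50, limma adjusted p = 0.000136) and 30.6-fold without shControl replicate 3, where it was 5.06-fold above the other controls, and 2 of 3 controls detected it. SERPINA3, alpha-1-antichymotrypsin, read 14.55, 14.66, 14.61 and 14.52 in shBrit1, against 12.09, 12.02 and 12.51 in shControl, a 5.20-fold rise (adjusted p = 1.36e-06). It thus rose without a comparable step on the third control. C1S and C1R, the proteases of the first complement component, were undetected on all 3 controls, as was CP. These genes thus entered the test through the shBrit1 arrays alone. On the normalized values C1S rose at least 5.50-fold and C1R at least 3.72-fold (limma adjusted p = 2.28e-07 and 1.59e-06). Without background correction their log2 differences were 1.59 and 1.17, below these bounds.

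Among antimicrobial peptides and proteins 9 of 17 tested genes rose and 1 fell, with a median of 0.44. ANG, a ribonuclease with antimicrobial activity, rose 10.1-fold (log2 3.33, SE 0.14), the chitinase-like CHI3L2 4.73-fold, the mucin MUC1 2.33-fold and adrenomedullin (ADM) 2.04-fold, with limma adjusted p-values from 4.75e-07 to 0.000105. All 4 tested S100 genes of this list were called higher, and they were singled out after their values were seen. S100A8 read 12.38, 12.23, 12.19 and 12.19 in shBrit1, against 7.88, 7.98 and 11.61 in shControl, a layout like that of LCN2. It rose 8.51-fold, S100A7 5.21-fold and S100A9 3.76-fold (adjusted p = 0.00889, 0.00347 and 0.0334), and on shControl replicate 3 they were 12.8-fold, 5.00-fold and 8.21-fold above the other controls. For S100A9 that array overlapped the shBrit1 arrays, and its call was lost when any 1 array other than shControl replicate 3 was left out (adjusted p up to 0.118). S100A12, detected on 0 of 3 controls, was at least 1.10-fold higher (adjusted p = 0.0158), a call lost without shControl replicate 1 or 2. The defensin DEFB103A (1.11-fold, adjusted p = 0.210) and the cathelicidin gene CAMP (log2 difference -0.40, adjusted p = 0.230) were not called. Another 15 genes of this list were on the array and not detected on enough arrays to be tested.

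WAP proteins and other protease inhibitors went both ways, with 6 of 17 higher, 7 lower and a median of 0.05. WFDC2, a WAP protein from the same family as PI3 and SLPI, rose 3.96-fold (log2 1.99, SE 0.16, limma adjusted p = 1.03e-05), with 2 of 3 controls detecting it. SPINK6, a kallikrein inhibitor, fell 7.95-fold (adjusted p = 2.37e-07) and the serpin SERPINB8 2.68-fold (adjusted p = 5.61e-06).

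In the list of inducing cytokines, receptors and adaptors 10 of 29 tested genes rose and 6 fell, with a median of 0.08. The receptor subunits IL17RC and IL1R1, for interleukins 17 and 1, rose 3.90-fold and 3.71-fold (limma adjusted p = 2.93e-06 and 4.08e-06), the endotoxin co-receptor CD14 6.39-fold (adjusted p = 5.37e-06, detected on 2 of 3 controls) and the flagellin receptor TLR5 2.32-fold (adjusted p = 2.00e-05). Other receptor genes of the list fell, among them IL1RAP, the co-receptor of IL1R1, by 3.28-fold, the decoy receptor IL1R2 by 3.04-fold and TLR6 by 1.33-fold (adjusted p = 2.27e-05, 9.56e-05 and 0.00631), named after their values were seen. The cytokine genes IL1B and IL1A, named after their values were seen, were not called. IL1B read 5.60, 5.82, 5.58 and 5.54 in shBrit1, against 5.86, 5.96 and 9.53 in shControl, so it was high on the third control array and low on all others (adjusted p = 0.138), and without that array it was called 1.21-fold lower (adjusted p = 0.0310). IL1A was 6.84-fold above the other controls on that array and was not called between the groups (adjusted p = 0.216).

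Transcription factors of the acute-phase response were higher in 10 of 19 tested cases and lower in 2, with a median of 0.97. CEBPD, a C/EBP factor that activates acute-phase genes, read 13.52, 13.43, 13.44 and 13.35 in shBrit1, against 11.20, 11.23 and 11.70 in shControl, a 4.18-fold rise (limma adjusted p = 3.29e-06). ELF3, an epithelial ETS factor, read 10.34, 10.32, 10.44 and 10.23 in shBrit1, against 8.47, 8.36 and 8.30 in shControl, a 3.87-fold rise (adjusted p = 6.68e-07). In both the groups were far apart, with the third control near the other controls. CEBPA rose 2.59-fold (adjusted p = 3.03e-05) and FOSL1, an AP-1 subunit, fell 6.88-fold (adjusted p = 1.82e-07). The NF-kB genes were named after their values were seen. Of them NFKBIA, a feedback inhibitor, rose 2.55-fold (adjusted p = 0.00598) and RELB 2.58-fold (adjusted p = 0.0482), both raised on shControl replicate 3 as well, by 2.72-fold and 5.21-fold. On that array RELB lay above every shBrit1 array, so the groups overlapped, and its call was lost when any 1 of the other arrays was left out (adjusted p up to 0.168). REL, an NF-kB subunit, rose 1.98-fold with separate groups (adjusted p = 0.00205). BCL3, an NF-kB cofactor, rose 1.33-fold with overlapping groups (adjusted p = 0.0317), a call also lost without any 1 array other than shControl replicate 3. NFKB1 and RELA were not called (adjusted p = 0.540 and 0.232). Without that array NFKB2 and NFKBIZ, with adjusted p-values of 0.0600 and 0.0521 on all arrays, were called higher, at 2.94-fold and 4.00-fold.

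**Figure D4:**
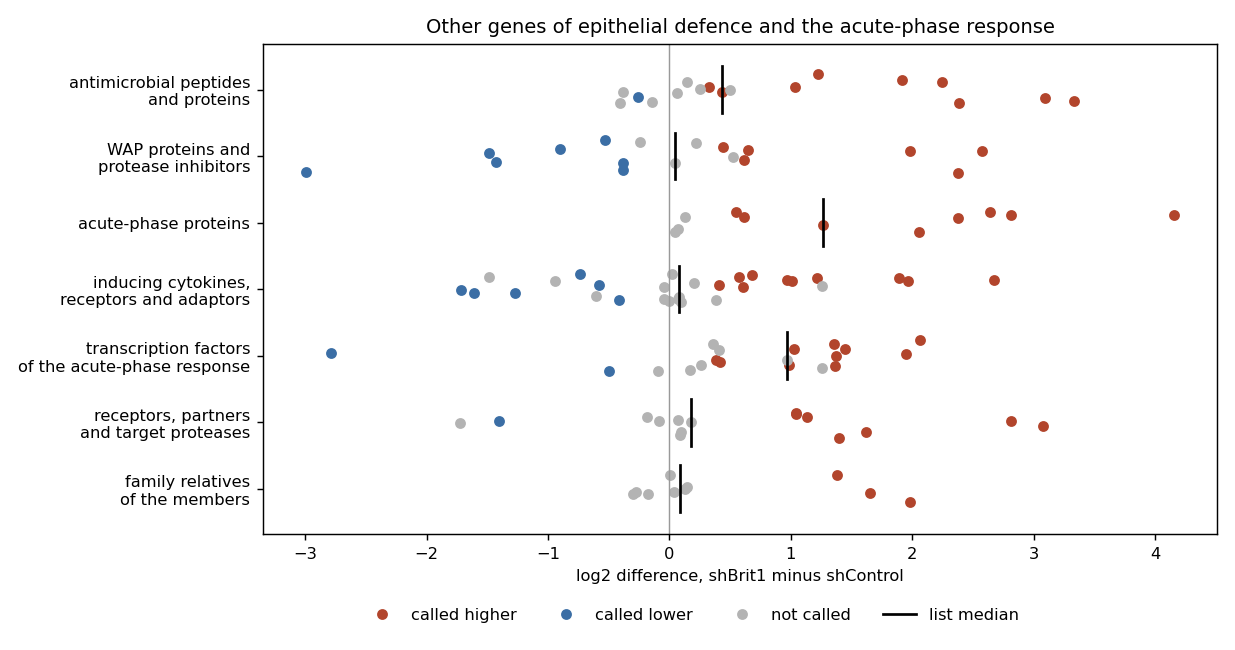
Log2 difference of shBrit1 minus shControl for each tested gene of the 7 lists (points, jittered vertically), red where called higher, blue where called lower and grey where not called by limma; black lines are list medians. Acute-phase proteins and their transcription factors lie mostly to the right of 0, with medians of 1.26 and 0.97, while protease inhibitors spread to both sides.

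Receptors, binding partners and target proteases of the members rose in 7 of 15 tested cases and fell in 1, with a median of 0.17. The scavenger receptor CD36, which binds serum amyloid A, was detected on 0 of 3 controls and was at least 5.87-fold higher (limma adjusted p = 2.23e-07). That bound holds for the normalized values only, and the lowest log2 difference over the alternative settings was 1.72. SCARB1, which like CD36 binds serum amyloid A, was not called (log2 difference -0.19, adjusted p = 0.115). FPR1, a formyl peptide receptor, rose 2.19-fold (adjusted p = 3.04e-05). FPR2 and TLR2, also of this list, were on the array and not detected on enough arrays to be tested. For SLPI, the reported membrane partners PLSCR4 and PLSCR1 rose 8.46-fold and 2.06-fold (adjusted p = 3.57e-07 and 0.000144), ANXA2 fell 2.65-fold (adjusted p = 1.91e-06) and progranulin (GRN), which SLPI protects from cleavage, rose 3.07-fold (adjusted p = 3.86e-05). TGM1, a transglutaminase of the epithelial barrier, rose 2.64-fold (adjusted p = 0.000551), and TGM2, which can cross-link elafin, was not called by its brightest probe (adjusted p = 0.853) while its other 2 tested probes were lower. Without shControl replicate 3 that brightest probe was called higher, at 1.35-fold. The LCN2 receptors SLC22A17 and LRP2 were not called (adjusted p = 0.250 and 0.487).

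MMP9, the metalloproteinase that LCN2 binds, differed from LCN2 across the arrays. It was detected on 0 of 4 shBrit1 arrays, which read 4.72, 4.61, 4.61 and 4.68, against 5.28, 5.18 and 8.68 in shControl. The third control was thus high for both genes, while the knockdown cells were high for LCN2 and without detectable MMP9. The difference in MMP9 was not called on all arrays (limma adjusted p = 0.0767), and it was called lower with any 1 of the 3 control arrays left out. Without shControl replicate 3 the adjusted p was 0.000122, but the fall was only bounded at 1.09-fold or more. The 2 remaining controls then read close to the lowest detected values on their arrays, 5.14 and 5.10.

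Relatives of the members by family were mostly not expressed at a testable level, with 10 of 28 on the array tested, 3 of them higher, 0 lower and a median of 0.09. Besides WFDC2 these were CNFN, which shares the cysteine-rich domain of PLAC8 and rose 3.14-fold (limma adjusted p = 7.60e-06), and the beta-defensin gene DEFB126, which rose 2.60-fold (adjusted p = 1.30e-05). PLTP, of the BPI fold family, was not called (adjusted p = 0.0723). Without shControl replicate 3, 3 genes of this list were called lower. The nearest 3 protein-coding genes on each side of the members outside chromosome 8 gave 32 genes other than members, of which 18 were tested, 4 higher and 7 lower. Over all genes tested 29.5% were higher and 30.1% lower, and the counts of relatives and of neighbours stand beside these shares. HPS5 and GTF2H1, which follow SAA1 on chromosome 11, differed by -0.03 and 0.12 log2 and were not called (limma adjusted p = 0.809 and 0.412).

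Markers of several cell types differed between the groups as well, while the hepatocyte sums overlapped. The sums include undetected probes, which add background signal. Summed bead signals of 15 leukocyte markers were 3320.5 to 3532 in shBrit1 and 1837 to 2059 in shControl. Among these CD14, CD68 and FCGR3B rose, FCER1G was not called and 11 were not tested. CD68, the brightest of those tested, averaged 10.71 log2 in shBrit1 and 8.72 in shControl and weighs most in these sums. CSF3R, MPO, AZU1, CD3E, MS4A1 and TYROBP were not detected on any array. Summed signals of 10 luminal markers were 22041 to 24485 in shBrit1 and 9648 to 15431 in shControl, with PGR and KIT undetected. MUC1, the brightest of those tested, averaged 13.96 log2 in shBrit1 and 12.74 in shControl and weighs most in these sums. Of the 8 tested luminal markers MUC1, GATA3 and KRT19 rose, FOXA1 and ELF5 fell and 3, KRT8 and KRT18 among them, were not called, with medians of 0.30 log2 on all arrays and -0.05 without shControl replicate 3. On that array KRT8 and KRT18 were at least 2-fold below the other controls, and 0 tested luminal markers were at least 2-fold above them. Without it KRT18 was called 1.82-fold lower in shBrit1. Summed signals of 9 markers listed as basal and squamous were 35437 to 42291 in shBrit1 and 47286 to 83372 in shControl. On shControl replicate 3, 2 of these markers, KRT14 and SFN, were at least 2-fold above the other controls and 1, EPCAM, at least 2-fold below them. KRT5, KRT14, SFN and EPCAM were lower, ITGB4 and DSG3 higher and 3 not called. For EPCAM the groups overlapped, and EPCAM and CDH1 are general epithelial genes that do not mark basal cells. The 8 hepatocyte markers, none of them tested, summed to 799.9 to 879.8 in shBrit1 and 727 to 823 in shControl, with APOA1, APOA2, TTR, FGB and AHSG undetected on every array. The 8 fibroblast markers summed to 7015 to 8259 in shBrit1 and 862 to 939 in shControl, with PDGFRA, PDGFRB, THY1 and LUM undetected and DCN, COL1A1 and COL3A1 higher. DCN was by far the brightest of these in shBrit1, with a mean of 12.61 log2 against 6.78 in shControl. COL1A1 averaged 7.29 and 6.18, and COL3A1 6.51 and 5.59. The part of these shifts in the members' differences was not tested.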

How the data were processed

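Per the file headers, the deposited table gives a bead signal (intensity, linear, not normalized between arrays, medians 75.9 to 87.6) with its detection p-value, probe by probe, on 7 arrays. The authors also deposited log2 values, quantile-normalized as judged from the values and used as an alternative only. 1 line that names no probe was left out. Groups came from the sample titles. Gene names came from the platform annotation (24782 of 48701 probes with 1 symbol, 0 with several, 23919 with none).

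Signals were corrected and quantile-normalized with neqc (limma 3.58.1, R 4.3.3, offset 16). Probes detected at p under 0.05 on at least 3 of 7 arrays were fitted with lmFit and eBayes, two-sided, with Benjamini-Hochberg adjustment over all 17967 probes, called at adjusted p under 0.05. Simulated arrays with known changes served to test the fit. They gave each probe the same spread on all arrays and held no outlying control, so they do not speak to shControl replicate 3. A gene's brightest tested probe was used in lists. Bounds ("at least") set undetected arrays to the lowest value among detected probes or the probe's own, whichever was higher. They hold for these normalized values only, and other background corrections gave smaller differences for some dim probes. Fold changes are 2 to the power of the log2 difference.

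The members and gene lists were chosen with earlier results of these data known. Named genes were all members, up to 4 genes per list with the smallest p-value, partners needed to describe a member's role, and 3 most alike genes per member. The number of arrays limits the precision. Alternatives were other background corrections, normalizations, filters and variance models, the authors' values, a replicate block and leaving out each array.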

Additional observations from a re-analysis of the deposited data

Results flagged for a closer look

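TLR5 had 1 shBrit1 array apart from the other 3. Replicate 2 read 7.14 log2, against 6.85 to 6.87 on the rest, and the gap was 0.934 of the group's range. In 36 probes examined this way, chance alone flags about 1 group in 20. No member probe was flagged among the shBrit1 arrays, and the 3 control arrays are too few for this check, which therefore does not speak to shControl replicate 3.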

How the results depend on the processing

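Of 153 comparisons of the 9 tested member probes with an alternative, 149 kept the direction and the side of the threshold. PI3 was called with array weights and without shControl replicate 3, and PLAC8 reversed in the same 2 settings to -0.51 and -0.57, with 1 array left out giving -0.57 to 1.30. TGM2 reversed in those 2 settings too, to 0.41 and 0.43 (-0.35 to 0.43 with 1 array left out), NFKB1 to 0.052 and 0.042 (-0.17 to 0.042), and CAMP to 0.0086 with array weights. Leaving out 1 array gave 7 to 8 member probes higher and 0 to 1 lower. Median scaling turned the split of calls over all probes to 3589 higher and 5690 lower, against 4829 and 4840 in the reported fit. Among antimicrobial genes the 1 lower call, MUC4, became 0 without background correction, with normexp and an offset of 50, with the authors' values, with the stricter detection limit and with the replicate block, and 2 genes were lower with median scaling; leaving out 1 array gave 0 to 1. Partner genes called lower were 2 with median scaling and with cyclic loess, 3 with array weights and 1 to 2 with 1 array left out. Family relatives called lower were 3 with array weights and 0 to 3 with 1 array left out. Some list genes that were dim in the controls kept their calls in all 17 alternatives, with smaller differences in some. The lowest log2 differences were 1.15 for WFDC2, 0.74 for DEFB126, 1.41 for CHI3L2, 1.74 for CD14 and 0.69 for TLR5. The cause of these shifts was not tested. Deviations of same-numbered samples from their group means had correlations of 0.097, -0.021 and 0.088. The outlying shControl replicate 3 enters every control deviation, so these values cannot exclude pairing. A fit with the replicate block called 4252 probes higher and 4205 lower. It kept the same 7 member probes and lost RELB, BCL3, S100A12 and MUC4 among the named genes.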
